A study of Mus musculus with 6 samples.

Results

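The 9 genes described here set up Sertoli cell identity and its hormone axis, and they were followed in the testes of Rnu11 mutant and control mice. The genes were chosen by name, as 5 transcription factors (Sox9, Wt1, Gata4, Nr5a1 and Rhox5), 1 receptor (Fshr) and 3 secreted hormone subunits or hormones (Amh, Inha and Inhbb), and all 9 were found by symbol among the 55353 genes measured in each library. Sertoli cells are the somatic nurse cells of the seminiferous tubule. SOX9, WT1, GATA4 and the nuclear receptor NR5A1 (SF1) specify them in the fetal gonad and maintain them afterwards, and they switch on Amh, which makes the Müllerian ducts regress. After birth, pituitary FSH acts through its receptor on Sertoli cells, which also respond to androgen, while the cells send inhibin, a dimer of an alpha and a beta subunit, back to the pituitary to restrain FSH.

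RNA was profiled in whole testes at postnatal day 14, from 3 mice with a conditional knockout of Rnu11 (Rnu11-cKO, called mutants here) and 3 controls. The product of Rnu11 is the U11 RNA, part of the minor spliceosome that removes a small class of introns. The sources used here do not give the Cre line, the cells it acts in, the strain or the exact genotype of the controls. The libraries were stranded total RNA depleted of ribosomal RNA, and the values are TPM, transcripts counted relative to a fixed library total. TPM corrects for gene length, so levels can be compared between genes, but the number of reads behind a value is not known from it. The design text speaks of animals and each library was taken as 1 animal. The limma p-values therefore set a group difference against the spread between animals within the groups, which limma moderates over all genes. They rest on these 6 samples. Rnu11 itself stood at 196, 393 and 203 TPM in the mutants, against 614, 576 and 550.3 TPM in the controls, with mutant 2 the least depleted (limma, log2 difference −1.21, adjusted p = 0.29; without mutant 2, −1.53 and adjusted p = 0.037). Nuclear protein-coding genes made up a share of the TPM total of 30.6%, 32.2% and 28.1% in the mutants, against 27.1%, 28.9% and 27.8% in the controls.

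All 9 genes had a higher mean in mutant testes, by 0.28 (Wt1) to 0.73 (Inha) on the log2(TPM + 1) scale, and none passed the threshold of an adjusted p of 0.05 over all 17959 genes tested. Over all these genes 0.0278% were called, in either direction. The unadjusted limma p was under 0.05, in the direction of a higher level, for 7 of the 9 (Wt1 and Inha were the exceptions), where 12.1% of all genes had such a p. Being higher in mutants was itself common, at 66.4% of all genes. Every mutant library was above every control for 4 of the 9 (Sox9, Nr5a1, Fshr and Amh), against 14.5% of all genes. In bulk tissue, more Sertoli cells in the sample and more RNA of a gene per cell cannot be told apart.

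The 6 libraries kept nearly the same order for gene after gene, and the whole libraries shared much of it. The nuclear protein-coding share of TPM was highest in mutants 2 and 1 (32.2% and 30.6%), then in control 2 (28.9%) and mutant 3 (28.1%). The mean log2(TPM + 1) of all tested genes, each centred over the 6 libraries, was also highest in mutants 2 and 1. It was 0.10 and 0.07 there, and −0.009 in control 2. Mutant 3 stood at −0.055, between control 1 (−0.053) and control 3 (−0.057), so its place differed from that for the 9 genes. Mutants 1 and 2 were the 2 highest libraries for all 9 genes, mutant 2 being the highest for 8 of them. Mutant 3 ranked the third for 4 genes and control 2 took that rank for the other 5, while control 1 was the lowest for 6 genes and control 3 for 3. With mutant 3 left out, every remaining mutant was above every control for 9 of 9 genes, against 37.8% of all genes. With control 2 left out the count was also 9 of 9, against 29.8% of all genes, and leaving out any other library kept it at 4. Without mutant 3 the differences of the 9 genes ran from 0.41 to 0.94, with limma adjusted p between 0.15 and 0.17.

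**Figure D1:**
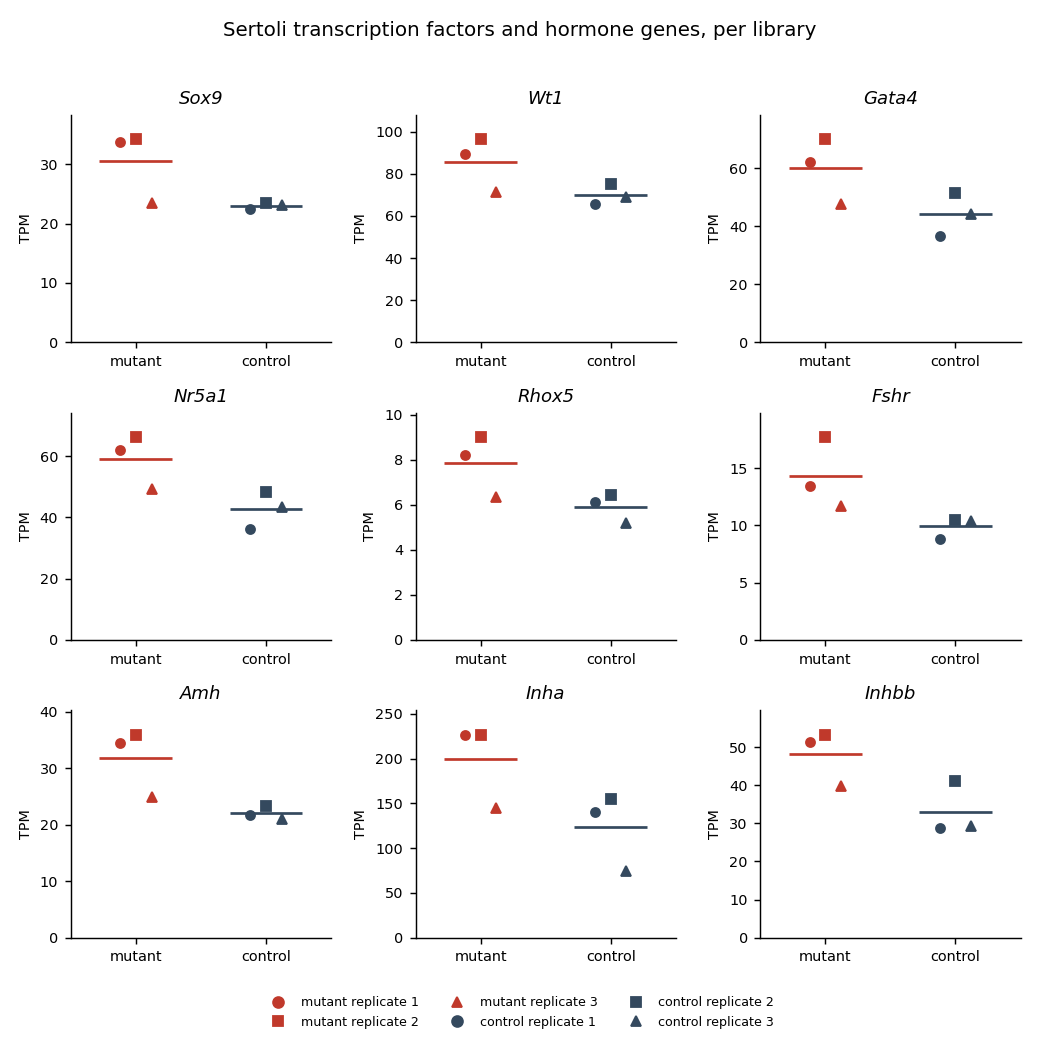
TPM of the 9 genes in each library (y axis, from 0), with the 3 mutants left of the 3 controls; each point is a library and each line a group mean. Mutants 1 and 2 are the 2 highest libraries in every panel, and mutant 3 lies among or just above the controls.

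Among the transcription factors, Sox9, the gene that drives Sertoli fate, read 33.8, 34.3 and 23.5 TPM in the mutants, against 22.5, 23.4 and 23.2 TPM in the controls. The controls were nearly equal, 2 mutants stood well above them and mutant 3 only just cleared the highest control. Sox9 averaged 30.5 ± 6.10 TPM in mutants and 23.1 ± 0.506 TPM in controls (SD, n = 3 each), a limma log2 difference of 0.37 (SE 0.15, adjusted p = 0.31). The gene lies on GRCm38 chromosome 11, 112782224 to 112787760, plus strand, and is annotated as protein-coding with 1 isoform.

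Wt1, a zinc finger factor needed to keep Sertoli identity, had 89.4, 96.5 and 71.5 TPM in the mutants, against 65.7, 75.1 and 69.1 TPM in the controls. Mutant 3 fell inside the control range, so the groups overlapped. The mean was 85.8 ± 12.9 TPM in mutants and 70.0 ± 4.78 TPM in controls (SD, n = 3 each), with the smallest difference of the 9 genes (0.28, SE 0.13, limma adjusted p = 0.33). Wt1 lies on GRCm38 chromosome 2, 105126529 to 105173616, plus strand.

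Wt1 makes proteins with and without the amino acids lysine, threonine and serine (KTS) between its last zinc fingers, by use of a pair of splice donors 9 bases apart, at chr2:105170010-105170018 of GRCm38. The protein without KTS is known as the better DNA binder, and the ratio of both forms matters for gonad development in mice and humans. The junction is shown here because the deposited isoforms separate these forms. The sequences come from GENCODE M21 transcripts, plus strand, and the capitals mark the 9 bases that only the +KTS form carries.
Wt1 +KTS: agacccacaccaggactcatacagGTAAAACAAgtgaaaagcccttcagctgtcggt
Wt1 −KTS: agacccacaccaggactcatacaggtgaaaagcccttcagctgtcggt

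The −KTS isoforms summed to 37.0, 38.6 and 31.6 TPM in the mutants, against 23.7, 30.5 and 26.6 TPM in the controls. Every mutant was above every control. The +KTS isoforms summed to 33.1, 33.8 and 24.7 TPM in the mutants, against 26.4, 28.9 and 26.9 TPM in the controls, and here mutant 3 was the lowest library of all. The +KTS share was 47.2%, 46.6% and 43.9% in the mutants, against 52.7%, 48.6% and 50.3% in the controls, that is 45.9 ± 1.77% in mutants and 50.6 ± 2.05% in controls (SD, n = 3 each). The groups did not overlap, and the exact permutation p of 0.1 (two-sided) is the smallest that 3 libraries against 3 can give. This split was computed after the files had been seen, from 5 isoforms with and 2 without KTS. The share is of the TPM of these isoforms, not of all Wt1 TPM, because Wt1-206 and Wt1-208 do not span the junction. Nearly all −KTS signal came from 1 isoform, Wt1-204, which also differs from the others at its ends. Without the +KTS isoform Wt1-201 the share was 41.1%, 40.2% and 41.3% in the mutants, against 47.4%, 40.0% and 45.5% in the controls, the groups overlapped and the exact permutation p was 0.4.

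The other variable piece of Wt1 is a cassette exon of 51 bases known from mammals (chr2:105144142-105144192, GRCm38, plus strand), shown in capitals between the ends of its neighbouring exons, from the same GENCODE M21 transcripts.
Wt1 cassette exon: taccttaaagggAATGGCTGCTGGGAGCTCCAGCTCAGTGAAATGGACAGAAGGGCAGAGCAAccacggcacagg
Isoforms with this exon made up 38.5%, 36.7% and 42.2% of the Wt1 TPM that spans it in the mutants, against 44.8%, 34.8% and 43.8% in the controls. These shares overlapped (exact permutation p = 0.7). In TPM, the isoforms with the exon summed to 27.0, 26.6 and 23.7 in the mutants, against 22.4, 20.7 and 23.4 in the controls, without overlap, mutant 3 just above control 3 (exact permutation p = 0.1, the smallest possible).

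Gata4, a zinc finger factor that works with NR5A1 on Sertoli promoters and is also made by Leydig cells, had 62.1, 69.9 and 47.6 TPM in the mutants, against 36.5, 51.5 and 44.2 TPM in the controls. Mutant 3 lay below control 2. Gata4 averaged 59.9 ± 11.3 TPM in mutants and 44.1 ± 7.53 TPM in controls (SD, n = 3 each; log2 difference 0.43, SE 0.18, limma adjusted p = 0.31). It lies on chromosome 14, 63198922 to 63271692, minus strand. Zfpm2 (FOG2), the GATA4 cofactor, was far lower than Gata4, at 2.71, 2.99 and 2.17 TPM in the mutants, against 2.01, 2.27 and 2.32 TPM in the controls.

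Nr5a1, which Sertoli and Leydig cells share and which directs both steroid enzymes and Amh, had 62.0, 66.3 and 49.3 TPM in the mutants, against 36.2, 48.3 and 43.4 TPM in the controls. All 3 mutants were above the highest control, mutant 3 by the least. The mean was 59.2 ± 8.84 TPM in mutants and 42.6 ± 6.09 TPM in controls (SD, n = 3 each; log2 difference 0.46, SE 0.15, limma adjusted p = 0.29). Nr5a1 lies on chromosome 2, 38692656 to 38714542, minus strand. The antisense gene Nr5a1os overlaps it on the other strand and stood at 1.05, 0.956 and 1.30 TPM in the mutants, against 0.819, 0.721 and 0.739 TPM in the controls. The library kit marks strand, but the sources used here do not say whether the quantification used it.

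Rhox5 is an X-linked homeobox gene of Sertoli cells and known to respond to androgen in mice. It was the lowest of the 9, with 8.19, 9.01 and 6.35 TPM in the mutants, against 6.13, 6.44 and 5.19 TPM in the controls. Mutant 3 fell just below control 2, and the averages were 7.85 ± 1.36 TPM in mutants and 5.92 ± 0.647 TPM in controls (SD, n = 3 each; log2 difference 0.35, SE 0.14, limma adjusted p = 0.31). The gene lies on the X chromosome, 37804842 to 37808876, plus strand.

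On the hormone side, Fshr, the FSH receptor, which in the testis is made by Sertoli cells, had 13.4, 17.7 and 11.7 TPM in the mutants, against 8.85, 10.5 and 10.4 TPM in the controls. All 3 mutants exceeded all 3 controls. Fshr averaged 14.3 ± 3.09 TPM in mutants and 9.91 ± 0.926 TPM in controls (SD, n = 3 each; log2 difference 0.47, SE 0.16, limma adjusted p = 0.29). It lies on chromosome 17, 88984952 to 89200675, minus strand, and its annotated start is also the start of the RefSeq promoter window. That window is shown as the one among the 4 windows matched below that holds an E-box (capitals), a motif through which USF proteins act on the Fshr promoter in the rat. The 250 bases before the start, from RefSeq on GRCm38.p6, are chr17:89200676-89200925, read on the minus strand.
Fshr promoter: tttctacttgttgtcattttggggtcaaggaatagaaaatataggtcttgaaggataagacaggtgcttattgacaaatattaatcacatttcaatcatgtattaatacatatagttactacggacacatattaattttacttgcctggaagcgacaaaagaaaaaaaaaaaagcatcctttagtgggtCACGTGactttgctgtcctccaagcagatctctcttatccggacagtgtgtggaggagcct
The E-box, CACGTG on either strand, begins 61 bases before the start, and 6.02% of 32851 RefSeq windows of this length hold one. RefSeq windows were matched for 4 of the 9 genes (Fshr, Inhbb, Inha and Rhox5), and only those of Fshr and Inhbb begin at the start annotated in GENCODE M21. The Inhbb window had no E-box and a GATA motif (GATA with T or A before it and A or G after it, on either strand) 27 bases before its start on the strand opposite to the gene, a motif found in 26.5% of windows. An NR5A half-site (AGGTCA) and a cyclic AMP element core (TGACGT), searched on both strands and held by 14.0% and 6.47% of windows, had no match in the windows of Fshr and Inhbb. The Inha window, which begins 532 bases from the nearest annotated start, held an NR5A half-site 69 bases before its own start. These searches describe letters only.

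Amh, the anti-Müllerian hormone of immature Sertoli cells, had 34.5, 36.0 and 25.0 TPM in the mutants, against 21.7, 23.3 and 21.01 TPM in the controls. The controls were tightly grouped and every mutant was above them. Amh averaged 31.8 ± 5.97 TPM in mutants and 22.0 ± 1.17 TPM in controls (SD, n = 3 each; log2 difference 0.49, SE 0.15, limma adjusted p = 0.29), on chromosome 10, 80805243 to 80807648, plus strand. Relative to Sox9, which activates it, Amh stood at 1.02, 1.05 and 1.06 in the mutants, against 0.967, 0.994 and 0.904 in the controls. These ratios did not overlap (exact permutation p = 0.1, the smallest possible; 0.33 after Benjamini-Hochberg adjustment over 10 ratios between genes, which were chosen after the values had been seen).

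Inha, the alpha subunit shared by both inhibins, was the most abundant of the 9 and had the largest difference of the 9. It read 227, 227 and 145 TPM in the mutants, against 140.0, 155 and 74.8 TPM in the controls. Mutant 3 fell between the controls, and control 3 was far below the rest. The mean was 199 ± 47.4 TPM in mutants and 123 ± 42.8 TPM in controls (SD, n = 3 each; log2 difference 0.73, SE 0.31, limma adjusted p = 0.31). Without control 3 the log2 difference was 0.40. Inha lies on chromosome 1, 75507077 to 75510366, plus strand, and is also expressed in Leydig cells.

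Inhbb, the beta B subunit that pairs with INHA to make inhibin B, the main inhibin of the male, had 51.2, 53.3 and 39.8 TPM in the mutants, against 28.8, 41.2 and 29.3 TPM in the controls. Mutant 3 lay just below control 2. Inhbb averaged 48.1 ± 7.27 TPM in mutants and 33.1 ± 7.02 TPM in controls (SD, n = 3 each; log2 difference 0.53, SE 0.17, limma adjusted p = 0.29), on chromosome 1, 119415465 to 119422248, minus strand. Inhba, the beta A subunit, stood apart at 1.57, 1.69 and 1.60 TPM in the mutants, against 1.58, 1.74 and 1.68 TPM in the controls (log2 difference −0.02, SE 0.12). The ratio of Inhbb to Inhba was therefore 32.7, 31.5 and 24.9 in the mutants, against 18.3, 23.6 and 17.5 in the controls. Inha over Inhba was 145, 134 and 90.4 in the mutants, against 88.8, 89.1 and 44.6 in the controls. Both ratios were free of overlap, at the exact permutation p of 0.1 (adjusted 0.33 over the 10 ratios). They share the denominator Inhba, which was low and nearly level, so they are not separate results. The log2 difference of Inha over Inhba was 0.77, and 0.44 without control 3. Inha over Inhbb overlapped between the groups, at 4.43, 4.25 and 3.63 in the mutants, against 4.86, 3.77 and 2.55 in the controls.

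The order of the 9 levels in TPM was the same in both groups but for 1 exchange. From high to low it ran Inha, Wt1, Gata4, Nr5a1, Inhbb, Amh, Sox9, Fshr and Rhox5 in mutants, and controls differed from it only in that Sox9 stood above Amh. Gata4 and Nr5a1, Nr5a1 and Inhbb, and Amh and Sox9 overlapped in range in both groups. Inha and Wt1 also overlapped in the controls. The authors' deposited table lists a log2 fold change of mutants over controls for each of the 9, all above 0, from 0.35 (Wt1) to 0.69 (Inha) in the column headed as confident and from 0.29 (Wt1) to 0.69 (Inha) in the column headed as single run.

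**Figure D2:**
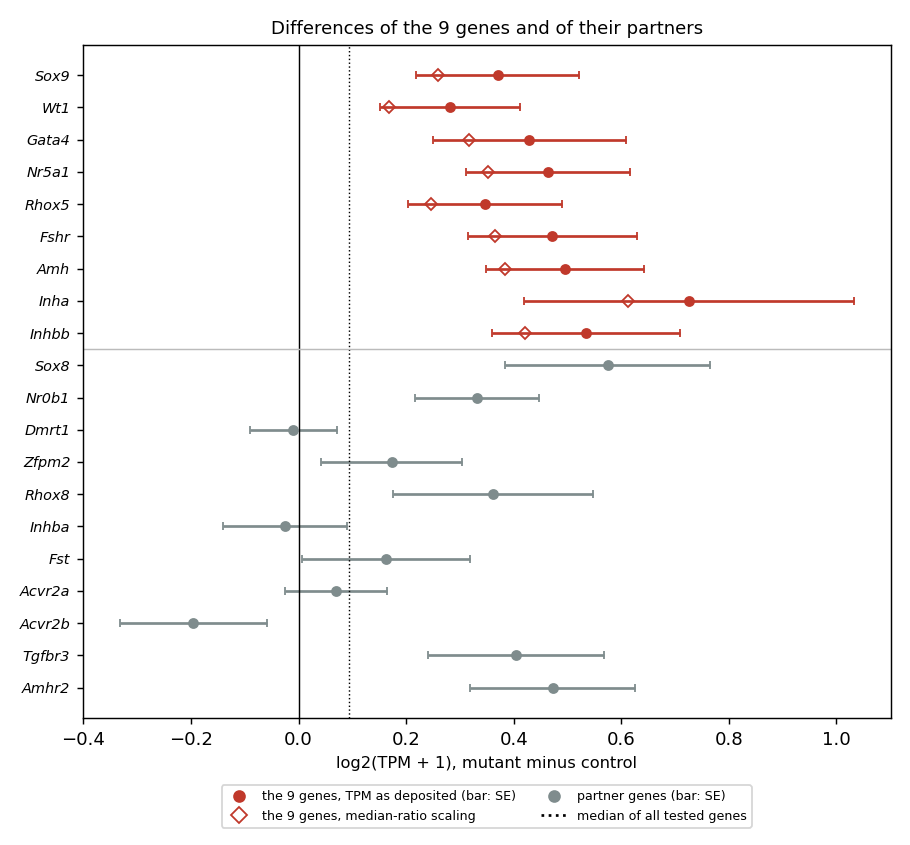
Log2(TPM + 1) difference, mutants minus controls, of the 9 genes (red) and of genes that work with them (grey), with bars of 1 SE; open diamonds give the 9 genes after median-ratio scaling and the dotted line is the median of all tested genes. The 9 genes lie between 0.28 and 0.73 as deposited and between 0.17 and 0.61 after scaling, while Dmrt1, Inhba and Acvr2b lie below 0.

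The median log2 difference was 0.46 for the 9 genes and 0.09 for all tested genes. After scaling the libraries by the median ratio over genes, the median of the 9 was 0.35 and their range 0.17 to 0.61, still above 0 for all 9 and still with none past the threshold.

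The other Sertoli genes were also mostly higher in mean. Of 25 further Sertoli markers 24 were tested, 23 were higher in mutants and 1 lower, with a median of 0.50 and no call. Their TPM summed to 3638, 4124 and 3108 in the mutants, against 2367, 2708 and 2242 in the controls, without overlap. The mean log2(TPM + 1) of the 24, which weighs each marker equally, did overlap. It was 5.517 in mutant 3 and 5.527 in control 2. Among the most abundant, Clu (clusterin) had 1283, 1540 and 1168 TPM in the mutants, against 822, 874 and 852 TPM in the controls. Ctsl (cathepsin L) had 439, 486 and 458 TPM in the mutants, against 279, 343 and 286 TPM in the controls. Both were free of overlap. Gstm6 and Aard, the next most abundant, overlapped, with mutant 3 (267 and 245 TPM) below control 2 (278 and 251 TPM). For 10 of the 24 tested markers every mutant was above every control, against 14.5% of all tested genes. Sox8, Rhox8, Cldn11, Serpina5, Drd4, Slc38a5 and Tsx stand on this list and also on a list of partner genes, and Ptgds also on the Leydig list.

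Each of the 9 genes was therefore set against the mean log2(TPM + 1) of these 24 markers in its own library. That mean was 0.48 higher in mutants. On this relative scale 6 of the 9 differences were below 0 and 3 above, and 8 of 9 overlapped between groups. No share over all tested genes on this scale is given to set beside that count. The gene without overlap was Wt1. Relative to the markers it stood at 0.63, 0.66 and 0.66 in the mutants, against 0.83, 0.72 and 0.99 in the controls. The difference was −0.20 (exact permutation p = 0.1, the smallest possible, and 0.9 after adjustment over the 9 genes). Without control 3 that difference was −0.12. Amh differed by 0.02, Nr5a1 by −0.01 and Fshr by −0.006, and the sign of each changed with 1 library left out. Inha had the highest relative difference, 0.25, with a spread of 0.43 among controls (SD, n = 3), and that difference was 0.004 without control 3. The count above 0 was 6 without control 3.

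Markers of other cell types differed in mean as well. All 14 Leydig cell markers were higher in mutants in mean, with a median of 0.58 (12 higher and 2 lower after median-ratio scaling). They summed to 358, 491 and 322 TPM in the mutants, against 189, 326 and 192 TPM in the controls, so mutant 3 lay just below control 2. The widest range was that of Cyp17a1, the enzyme that makes androgen precursors, with 39.2, 95.5 and 43.7 TPM in the mutants, against 3.88, 37.0 and 7.50 TPM in the controls. Gata4, Nr5a1 and Inha are also expressed in Leydig cells, and how much of their signal comes from them was not tested. All 7 tested macrophage markers were higher in mean (median 0.43), as were 6 of 8 peritubular myoid markers (median 0.20) and 7 of 8 endothelial markers (median 0.18; 6 of 8 after median-ratio scaling).

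Germ cell lists lay the other way. Of 20 leptotene and zygotene markers 19 were lower in mutants and 1 higher (median −0.48), with sums of 458, 422 and 540 TPM in the mutants, against 712, 580.2 and 723 TPM in the controls. All 9 tested pachytene markers were lower in mean (median −0.61), but control 2 was as low as the mutants, with sums of 160.2, 161 and 188 TPM in the mutants, against 331, 157 and 308 TPM in the controls. Of 9 markers of differentiating spermatogonia 8 were lower (median −0.25), and of 10 markers of undifferentiated spermatogonia 6 were higher and 4 lower (median 0.06; 5 and 5 after median-ratio scaling). The part of these cell type shifts in the levels of the 9 genes was not tested. No gene of these lists passed the adjusted threshold.

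**Figure D3:**
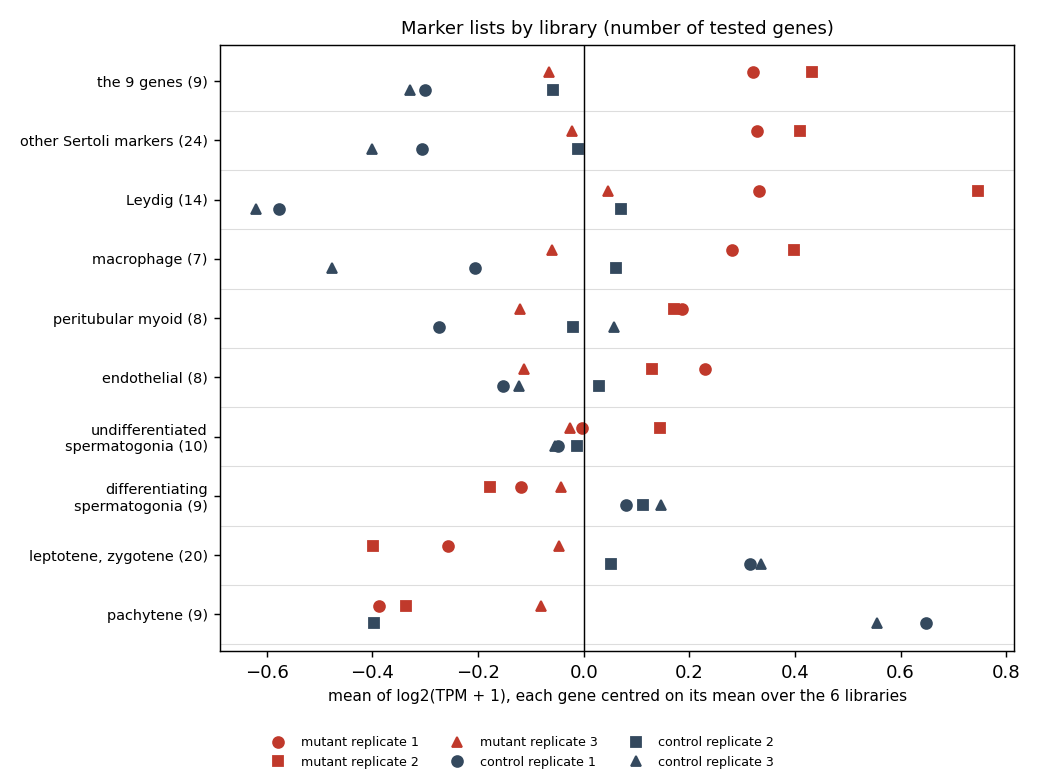
Mean of log2(TPM + 1) over the tested genes of each marker list, each gene centred on its mean over the 6 libraries (x axis), with mutants above controls in each row. Mutants 1 and 2 are the 2 highest libraries for the 9 genes and for the Sertoli, Leydig, macrophage, peritubular myoid and endothelial markers. The same holds for undifferentiated spermatogonia, where mutant 1 lies just above control 2. For the pachytene markers control 2 lies with the mutants.

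Markers of the labelled tissue were present, while those of the ovary and the adrenal, which share several of the 9 genes, were low. Granulosa cell markers of the ovary were under the filter of 1 TPM but for Fst, and their list summed to 2.74 to 4.10 TPM in mutants and 2.67 to 3.79 TPM in controls. Adrenal markers (Cyp11b1, Cyp21a1 and Mc2r) summed to at most 0.816 TPM in mutants and 1.00 TPM in controls.

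The partners of the 9 genes were described by lists for each role, in which no gene passed the adjusted threshold. Of 17 tested genes on a list of further transcription factors linked to Sertoli cells, 14 were higher in mutants and 3 lower (median 0.30). Of all tested genes 66.4% were higher. Not all genes of this list are particular to Sertoli cells, and Etv5 is also on the list of undifferentiated spermatogonia. For 7 of the 17 every mutant was above every control, against 14.5% of all tested genes. Sox8, the close relative that acts beside Sox9, had 38.3, 42.9 and 33.5 TPM in the mutants, against 19.5, 32.8 and 25.1 TPM in the controls. Gata6, Rara (the retinoic acid receptor alpha) and Nr0b1 (DAX1) differed by 0.34, 0.35 and 0.33, each without overlap. Dmrt1, which guards male fate and is expressed in both Sertoli cells and spermatogonia, had 43.2, 42.7 and 41.7 TPM in the mutants, against 42.9, 44.8 and 41.0 TPM in the controls.

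The Rhox homeobox cluster around Rhox5 gave values mostly near 0. Of 31 other Rhox genes 7 passed the filter, 5 of them higher and 2 lower (median 0.12; 4 and 3 after median-ratio scaling). Rhox8, the other main Sertoli member, had 68.4, 58.3 and 52.1 TPM in the mutants, against 38.9, 60.1 and 41.3 TPM in the controls, and overlapped. Rhox13, a germ cell member, lay the other way and without overlap, at 6.54, 5.36 and 6.37 TPM in the mutants, against 8.41, 7.54 and 8.63 TPM in the controls (log2 difference −0.38, SE 0.11, limma adjusted p = 0.29).

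Downstream of Fshr, 24 genes of G protein, cyclic AMP and kinase signalling were tested, 20 higher and 4 lower in mutants (median 0.14; 14 and 10 with a median of 0.04 after median-ratio scaling). Gnas, the stimulatory G protein through which the receptor signals, had 206, 243 and 167 TPM in the mutants, against 148, 163 and 142 TPM in the controls, without overlap. The adenylyl cyclase Adcy6 differed by 0.64 and the cyclic AMP phosphodiesterases Pde4d and Pde4b by 0.58 and 0.71 (Pde4b by 0.44 without control 3), and all 3 overlapped. On the list of androgen and FSH response genes all 12 tested were higher in mean (median 0.48). The serine protease Corin had the largest difference among them, with 13.7, 12.6 and 5.17 TPM in the mutants, against 3.98, 4.92 and 1.94 TPM in the controls (1.28, SE 0.39, limma adjusted p = 0.29).

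In the activin, inhibin and AMH pathway 18 genes were tested, 14 higher and 4 lower (median 0.17; 10 and 8 with a median of 0.08 after median-ratio scaling). Amhr2, the receptor of AMH, had 139, 142 and 105 TPM in the mutants, against 102, 95.1 and 79.5 TPM in the controls, without overlap. Tgfbr3 (betaglycan), the coreceptor that lets inhibin block activin, had 25.6, 31.6 and 25.7 TPM in the mutants, against 16.1, 23.6 and 22.7 TPM in the controls. The type I receptor Acvr1 and the inhibitory Smad6 differed by 0.68 and 0.59, both without overlap. The activin type II receptors stood closer to 0, with 0.07 for Acvr2a (−0.03 after median-ratio scaling) and −0.20 for Acvr2b, as did the activin antagonist Fst at 0.16. Without mutant 1, Acvr2b differed by −0.30 and Fst by 0.033, without mutant 2 Acvr2a differed by 0.012, and without mutant 3 Fst differed by 0.27. Tgfbr3 differed by 0.40, and by 0.24 without control 1; Acvr2b differed by −0.13 without that library.

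Of the genes that mark Sertoli maturation and the blood-testis barrier 10 were tested, and all 10 were higher in mean (median 0.35; 9 higher and 1 lower after median-ratio scaling). Gja1 (connexin 43) had 67.6, 84.05 and 55.6 TPM in the mutants, against 46.3, 53.7 and 37.0 TPM in the controls. Cldn11, a tight junction claudin, had 173, 184 and 139.9 TPM in the mutants, against 127, 133 and 114 TPM in the controls. Both were free of overlap. Krt8 and Krt18, keratins of immature Sertoli cells, were under the filter.

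The genes whose profile over the 6 libraries was nearest to each of the 9 were found by root mean square distance of centred log2(TPM + 1), among 10825 genes of at least 5 TPM. The nearest gene to Nr5a1 after Ssh1 was Dhh, the desert hedgehog ligand of Sertoli cells, at 0.034, and that to Inhbb was Gstm6, a Sertoli marker, at 0.025. For Wt1 the 2 nearest were Amer1 (0.021) and Mylk, a peritubular myoid marker (0.024). For Gata4 they were Irak1 and Lama2 (both 0.021), and for Sox9 Pla2g6 (0.024) and Sema6c (0.031). Rhox5 had the smallest distance, 0.013 to Atrnl1, and Inha the largest, 0.049 to Sfxn1. Fshr was nearest to Dcn (0.037) and Amh to Ttyh1 (0.025). Of the nearest genes named here, only Dhh and Gstm6 were on the list of Sertoli markers. These distances describe 6 libraries that share the order given above.

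At the level of isoforms, the 9 genes have 25 in the files, and 5 of the genes (Sox9, Fshr, Amh, Inha and Inhbb) have 1 each. Of 20 isoforms tested for level, 18 were higher in mutants and 2 lower, where 63% of 44197 isoforms were higher. None of the 20 passed the adjusted threshold, against 0.0136% of all isoforms. For 5 of the 20 every mutant was above every control, against 11.6% of all isoforms. Among these 5, Sox9-201, Fshr-201 and Amh-201 are the only isoforms of their genes and repeat the gene values. Of 14 isoforms tested for their share of the gene, none passed, against 0.0112% of 35636, and 2 had an unadjusted limma p under 0.05, against 5.78%. The shares of 3 of the 14 did not overlap between groups, Rhox5-202 higher (5.78% of all isoforms tested were so) and Rhox5-201 and Gata4-204 lower (5.9%).

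Those 2 are the pair of Rhox5 isoforms, whose shares mirror each other. Rhox5-202 made up 97.0%, 100% and 100% of Rhox5 in the mutants, against 83.9%, 77.4% and 97.0% in the controls. The groups did not overlap, but mutant 1 and control 3 were nearly equal (limma, log2 difference of the share ratio 2.92, SE 0.81, adjusted p = 0.86). Rhox5-201 had 0.249 TPM in mutant 1 and was listed at 0 in mutants 2 and 3, against 0.988, 1.46 and 0.158 TPM in the controls. A TPM of 0 can be a failed estimate, and both isoforms have 4 exons over nearly the same span.

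Among the Wt1 isoforms, Wt1-204 was the most abundant, at 35.9, 38.0 and 30.0 TPM in the mutants, against 22.6, 30.0 and 25.3 TPM in the controls, and Wt1-205 the next, at 24.5, 24.8 and 19.7 TPM in the mutants, against 19.9, 19.0 and 19.6 TPM in the controls. Wt1-201 had 7.17, 7.78 and 2.42 TPM in the mutants, against 5.03, 8.56 and 4.71 TPM in the controls, lowest in mutant 3. The retained-intron isoforms Wt1-206 and Wt1-208 differed by 0.14 and 0.35, and Wt1-203 was listed at 0 in all libraries. For Gata4, 4 of 6 isoforms held 5% or more of the gene, and the short Gata4-204 held 15.0%, 15.4% and 15.0% in the mutants, against 20.3%, 16.1% and 16.5% in the controls, without overlap (limma, adjusted p = 0.87). Nr5a1-201, the main isoform of its gene, held 77.3%, 80.8% and 82.1% in the mutants, against 74.0%, 80.04% and 75.1% in the controls, which overlapped, and the retained-intron isoform Nr5a1-203 held 10.5%, 8.97% and 8.72% in the mutants, against 10.5%, 9.14% and 10.6% in the controls.

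**Figure D4:**
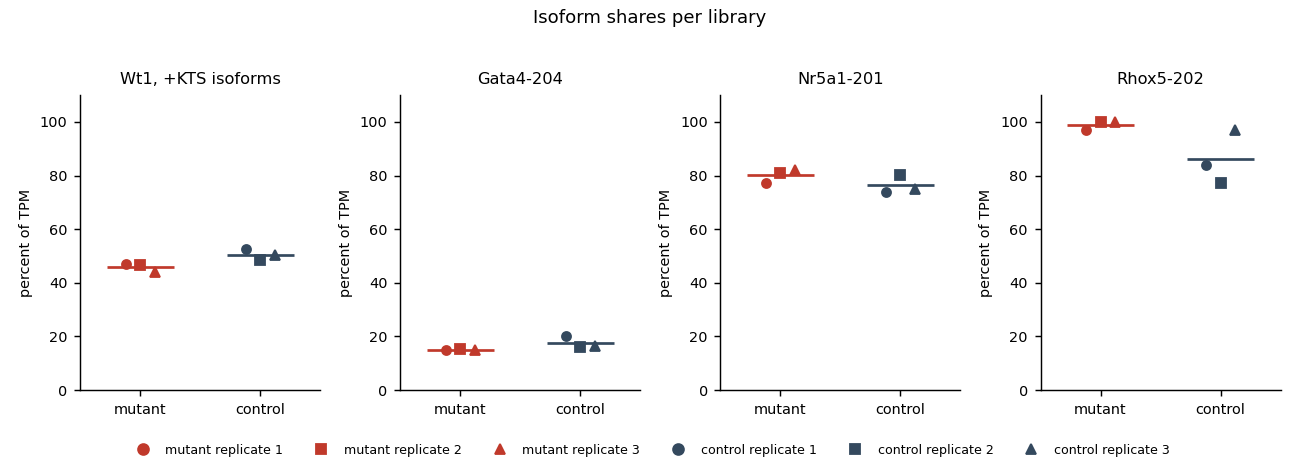
Isoform shares (y axis, percent, from 0), with mutants left of controls, a point per library and a line at each group mean. Gata4-204, Nr5a1-201 and Rhox5-202 are given as shares of the TPM of their gene. The +KTS isoforms are given as a share of the Wt1 isoforms that span the KTS junction, not of all Wt1 TPM. The Wt1 share averages 45.9% in mutants and 50.6% in controls, and the Rhox5-202 share of control 3 lies with the mutants.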

How the data were processed

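The values deposited by the authors are TPM of every gene and isoform in 6 libraries, without counts. The submitters' processing notes name HISAT2 and the build GRCm38. Which quantification tool and annotation release made the TPM values is unknown from the sources used here. The log2 fold changes quoted as the authors' come, per the file headers, from a deposited table of group averages.

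Genes averaging 1 TPM or more over the 6 libraries were compared between groups on log2(TPM + 1) with the lmFit and eBayes steps of limma 3.58.1 (trend on; R 4.3.3). P-values are two-sided and were adjusted by Benjamini-Hochberg over all genes tested, with a threshold of 0.05. These differences understate the change of low genes. Isoforms were tested in the same way. An isoform's share was tested, with the trend off, as the log2 ratio of its TPM to that of the gene's remaining isoforms, both with 0.1 added, where the gene had 5 TPM or more and the isoform 5% to 95% of it. Single values were compared by an exact permutation test, which cannot give a p under 0.1 here.

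The 9 genes and all lists were chosen with earlier results of these data known. Named genes are the 9, Rnu11, up to 4 per pathway list by p-value, their listed partners, the most abundant 4 of each marker list as needed, the 2 nearest profiles per gene, and isoforms with at least 5% of their gene. A gene that the rule takes is not reported here. Those named beyond this rule, such as Nr5a1os, Krt8, Krt18, Wt1-203 and the Wt1 and gene ratios, were chosen after their values were seen. Of 55353 symbols, 54452 were found in GENCODE M21 or RefSeq. Scripts were tested on simulated data. Python 3.11.15, pandas 2.3.3 and matplotlib 3.10.9 were used.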

Additional observations from a re-analysis of the deposited data

How the results depend on the processing

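None of the 9 genes passed the threshold under any of 14 alternatives, and all 126 of their values kept their direction, with limma adjusted p from 0.11 to 0.64. The number of genes called over the whole table was 5, and 8 with a pseudocount of 0.1, 0 with no filter, 3 with a filter of 5 TPM, with median-ratio scaling or with no trend, and 4 to 9 with 1 library left out. The number of isoforms called was 6, and 11 with a pseudocount of 0.1 and 3 to 11 with 1 library left out. The number of isoform shares called was 4, and 1 to 10 with 1 library left out. With the replicate number as a block the counts were 0 genes, 0 isoforms and 0 shares. The labels do not say whether the numbers pair the samples. Deviations of same-numbered libraries correlated at −0.07, 0.03 and 0.08, and those of other pairs at −0.16 to 0.12. With 3 libraries per group these correlations cannot exclude a pairing. With the block the SE was smaller for all 9 genes, for Inha 0.12 against 0.31. Their limma adjusted p was then 0.19 to 0.27. Relative to the Sertoli marker mean, the difference between mutants and controls was above 0 for 3 of the 9 genes. It was above 0 for 9 when the median of all tested genes took the place of that mean, and for 2 to 6 with 1 library left out. Values that reversed were those of Acvr2a (−0.030 with median-ratio and −0.035 with protein-coding scaling) and, with 1 library left out, Dmrt1 (−0.041 to 0.021), Nr5a1-202 (−0.025 to 0.29), Wt1-201 (−0.38 to 0.30) and the log2 share ratios of Wt1-208 (−0.043 to 0.19), Wt1-205 (−0.17 to 0.0033) and Gata4-202 (−0.054 to 0.051). Relative to the Sertoli marker mean, Amh, Nr5a1, Fshr and Gata4 also changed sign with 1 library left out. For Gata4 that difference was −0.049, and 0.041 without control 3. The cause of these reversals was not tested. The +KTS share difference was −4.67 percentage points, and −3.59 to −5.63 with 1 library left out, an alternative added after seeing the data. TPM keeps no depth, so the precision of low values cannot be given.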
